A study of Mus musculus with 21 samples.

Results

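The genes described here are 10 markers of smooth muscle cells, pericytes and myofibroblasts: Acta2, Tagln, Cnn1, Myh11, Mylk, Smtn, Lmod1, Rgs5, Cspg4 and Notch3. They are established markers, chosen with earlier results of these data known, out of 18193 genes that the platform annotation names. Every probe set assigned to 1 of them alone was used, 20 of 45101 on the array. The study measured total RNA, labelled by its submitters as cardiac myocyte, on 21 one-colour arrays from mice. G4D mice are gene-targeted animals that make less Gata4, a zinc-finger transcription factor of the heart. The groups were formed by genotype and operation: 6 G4D samples after transverse aortic constriction (TAC), 6 wild-type samples after TAC, 5 G4D samples after a sham operation and 4 wild-type samples after a sham operation. In TAC a ligature sized on a 27 gauge needle narrowed the aortic arch and loaded the left ventricle, and sham-operated mice had the same surgery with the aorta untouched. The labels give no strain, age, sex, interval after surgery or batch. They say only that the samples are replicates, so p-values measure the spread between these samples, which may be partly technical.

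Contractile smooth muscle surrounds the coronary arteries and veins, and pericytes sit on the capillaries that run between heart muscle cells. Both cell types are called mural cells. Smooth muscle genes such as Acta2, Tagln, Cnn1 and Myh11 are driven by serum response factor (SRF), which binds CArG boxes together with its partner myocardin. Fibroblasts that become contractile in an injured heart, called myofibroblasts, take up part of the same programme, with Acta2 as its best known marker. Acta2 is also made for a time by heart muscle cells before birth.

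All values are log2 values after quantile normalization of the arrays. A gene is represented by its brightest probe set and was tested when that probe set averaged 4.35 or more, which is the 40th percentile of all probe sets. Of the 10 genes, 8 passed, as did 13272 genes in all. Cnn1 and Lmod1 were under this level in the mean and were not in the gene-level test. Calls were made in 1 limma fit of the 21 arrays, with p-values adjusted over all 13272 genes by the Benjamini-Hochberg method and a threshold of 0.05. The precision is limited by the number of arrays. Set against the average of the other arrays of its own group, each array had a Pearson correlation of at least 0.969, and the medians of the deposited values ran from 4.31 to 5.33.

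The label of the RNA was checked against markers. All 8 cardiomyocyte genes examined passed the level filter, but so did 10 of 10 endothelial, 10 of 10 fibroblast and 8 of 8 macrophage genes. Of all 18193 named genes 13272 passed, so passing alone is weak evidence. In other lists fewer passed, such as 3 of 7 lymphocyte and 3 of 6 adipocyte genes. In wild-type sham the endothelial, fibroblast and macrophage lists averaged 8.31, 9.22 and 7.50, against 4.35 for the filter. Genes of those cell types were therefore measured in the same RNA. In such bulk samples, fewer cells of a type and less RNA per cell cannot be told apart. The brighter of 2 Gata4 probe sets averaged 7.97 ± 0.18 in G4D TAC, 7.80 ± 0.23 in wild-type TAC (SD, n = 6 each), 7.85 ± 0.09 in G4D sham (n = 5) and 8.11 ± 0.15 in wild-type sham (n = 4). G4D less wild type was 0.17 ± 0.10 (SE) after TAC, with limma adjusted p = 0.552, and -0.25 ± 0.12 after sham, with adjusted p = 0.612. For the second probe set it was 0.07 after TAC and -0.07 after sham, neither called. Whether these probe sets lie in the altered part of the gene is not given in the sources used here, so their levels neither bear out nor contradict the genotype labels.

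G4D sham samples 2 and 5 and G4D TAC sample 6 stood apart, and all touch the genes described here. G4D sham sample 5 had Myl4, an atrial myosin light chain, at 13.08 and Myl7, another atrial light chain, at 11.67, and was the highest of the 21 arrays in both. The next in both was G4D TAC sample 6, with Myl4 at 9.80 and Myl7 at 6.87, whereas the other G4D TAC samples had Myl4 between 7.18 and 7.81 and Myl7 between 4.04 and 5.14. G4D TAC sample 6 also held the highest Cspg4 of all arrays, 7.28, and the highest Tagln among the TAC samples, 8.06. The mean of 6 atrial genes was 10.70 in G4D sham sample 5, against a minimum of 6.93 in G4D sham, and was at most 7.70 in G4D TAC. G4D sham sample 5 held the highest value of all 21 arrays for Acta2, Tagln, Myh11 and Mylk, and also for Myl9, a smooth muscle light chain, for which the next array, G4D TAC sample 6, read 8.50. G4D sham sample 2 was low in both Acta2, at 9.48, and the skeletal actin Acta1, at 10.44, whereas the other G4D sham samples had Acta1 between 12.15 and 12.36. Results for Acta2, Tagln, Myh11, Mylk, Cnn1 and Cspg4 are therefore also given without the array that stands apart in them.

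**Figure D1:**
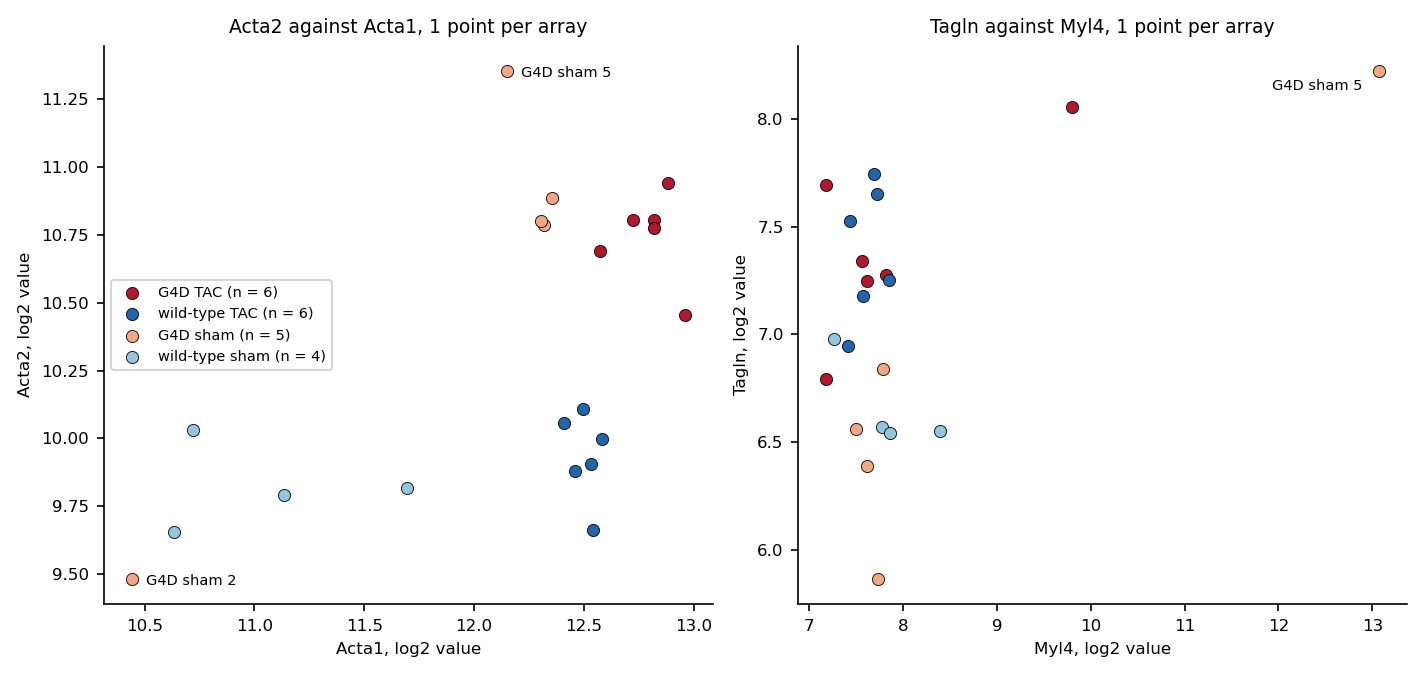
Each point is 1 array, with log2 values on both axes: Acta2 against Acta1 on the left, Tagln against Myl4 on the right, coloured by group (6 G4D TAC, 6 wild-type TAC, 5 G4D sham, 4 wild-type sham). G4D sham sample 2 lies at the low corner beside the wild-type sham samples in the left panel, and G4D sham sample 5 lies alone at Myl4 13.08 in the right panel.

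Of the 8 tested genes, 2 were called in any of the comparisons of the fit of all 21 arrays. Acta2, the smooth muscle actin, was higher in G4D than in wild type after TAC by 0.81, was higher by 0.84 after sham without passing the test, and was not called between TAC and sham. Cspg4, which encodes the pericyte surface proteoglycan NG2, rose after TAC in both genotypes and was higher in G4D than in wild type after TAC. The other tested genes, Tagln, Myh11, Mylk, Smtn, Rgs5 and Notch3, passed the test in none of the comparisons of the fit of all 21 arrays. That does not show that they were unchanged. For Tagln, TAC less sham was 0.63 in G4D and 0.72 in wild type, each with a 95% interval above 0. Cnn1, under the level filter, had a TAC effect of 1.56 in G4D in a fit of all probe sets (limma adjusted p = 0.0188). That call was lost without G4D sham sample 1 or 3.

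**Figure D2:**
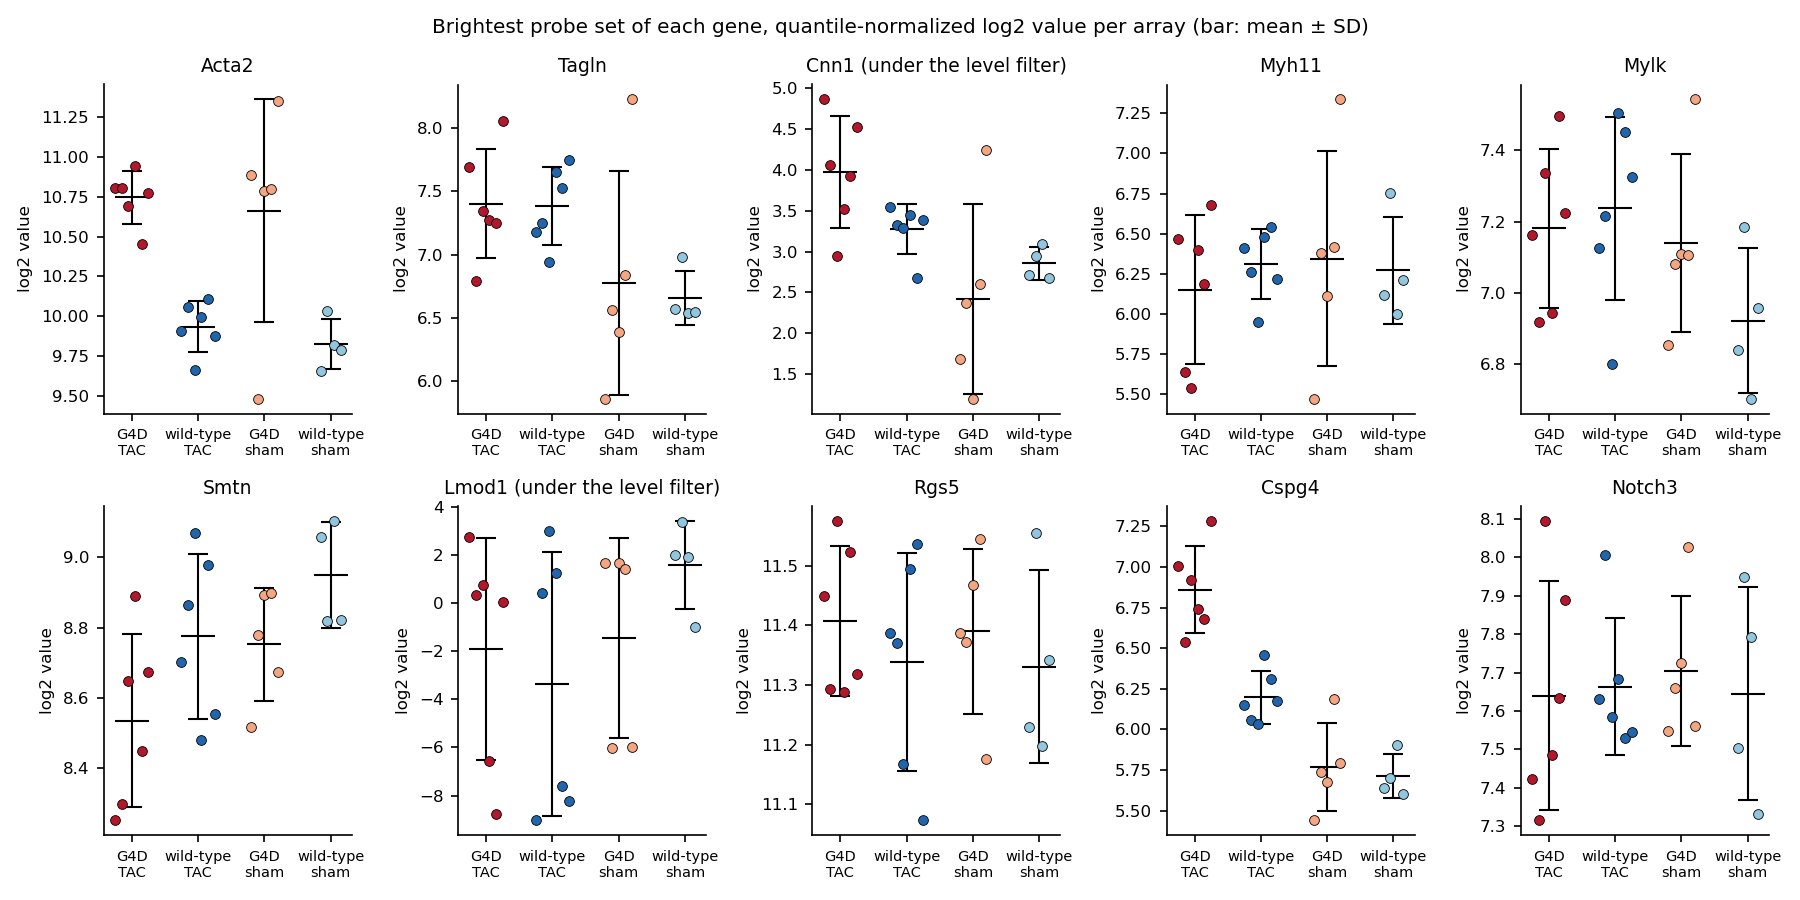
One panel per gene with the log2 value of its brightest probe set in each array, in the order G4D TAC, wild-type TAC, G4D sham and wild-type sham, with bars for mean ± SD (n = 6, 6, 5 and 4). The y axes differ between panels. Acta2 in G4D TAC lies between 10.45 and 10.94, above all 6 wild-type TAC samples, and Cspg4 in G4D TAC lies between 6.54 and 7.28, above every sample of the other groups.

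The 250 bases before the annotated start of the 2 genes that were called, and of Rgs5, which was called in no comparison, are shown because Gata4 and SRF act through short DNA motifs. They are RefSeq promoter sequences of build GRCm38.p6, with GATA (or its reverse complement TATC) and CArG boxes in capitals. A CArG box has CC and GG around 6 bases of A or T, and the form marked here allows 1 G or C among those 6, a choice made after the strict form was found in none of these promoters. The windows are chr19:34255374-34255623 on the minus strand for Acta2, chr9:56864854-56865103 on the plus strand for Cspg4 and chr1:169655251-169655500 on the plus strand for Rgs5.
Acta2: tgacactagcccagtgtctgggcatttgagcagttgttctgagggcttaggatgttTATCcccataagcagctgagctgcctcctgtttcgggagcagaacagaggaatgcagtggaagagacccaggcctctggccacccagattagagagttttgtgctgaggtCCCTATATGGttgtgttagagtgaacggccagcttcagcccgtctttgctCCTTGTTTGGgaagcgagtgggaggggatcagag
Cspg4: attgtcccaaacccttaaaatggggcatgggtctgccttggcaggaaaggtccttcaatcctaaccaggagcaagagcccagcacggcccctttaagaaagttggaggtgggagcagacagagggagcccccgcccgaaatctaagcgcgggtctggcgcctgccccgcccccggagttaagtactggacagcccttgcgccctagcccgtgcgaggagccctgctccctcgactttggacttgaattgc
Rgs5: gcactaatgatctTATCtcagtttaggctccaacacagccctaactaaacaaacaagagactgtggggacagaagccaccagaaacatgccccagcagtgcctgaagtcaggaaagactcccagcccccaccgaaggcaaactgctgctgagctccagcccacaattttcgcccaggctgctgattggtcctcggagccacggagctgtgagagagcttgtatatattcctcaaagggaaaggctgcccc

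In the Acta2 window, the CArG boxes lie at -84 to -75 and at -34 to -25 from the start, and a TATC lies at -194 to -191. The Cspg4 window holds no match to any motif searched, each on both strands: the strict and relaxed CArG box, the E-box CANNTG, the GATA core, the TATA box TATAAA, and the core motif of the Notch effector RBPJ, which is GTGGGAA. Promoter sequences were available for 8 of the 10 genes. Of these, the Acta2 promoter alone held the relaxed CArG box, which 7.24% of all 32851 mouse promoters in the table hold. GATA was found in 4 of the 8, those of Acta2, Smtn, Rgs5 and Notch3, and in 53.6% of all promoters. CANNTG was found in 3 of the 8, those of Acta2, Cnn1 and Lmod1, and in 66.2% of all promoters. Neither CArG box of Acta2 overlaps another motif searched. A match says only that these letters are in the window.

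Acta2 forms the thin filaments of smooth muscle. Its bright probe set read a median of 10.79 in G4D TAC (lowest 10.45, highest 10.94) and a median of 9.95 in wild-type TAC (lowest 9.66, highest 10.11). It read 10.89, 9.48, 10.79, 10.80 and 11.35 in G4D sham, and 9.66, 10.03, 9.82 and 9.79 in wild-type sham. All 6 G4D TAC samples were above all 6 wild-type TAC samples. After sham, 4 of the 5 G4D samples were above all 4 wild-type samples, and G4D sham sample 2 was below them all.

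Acta2 averaged 10.75 ± 0.16 in G4D TAC and 9.93 ± 0.16 in wild-type TAC (SD, n = 6 each), a difference of 0.81 ± 0.20 (SE) or 1.75-fold, called by limma at adjusted p = 0.0251. Acta2 was thus 1 of 2 of the 8 tested genes called in this comparison, in which 3.36% of all tested genes were called. The groups did not overlap for either gene, against 2.59% of all tested genes without overlap. The call sat near the threshold and was lost in a fit with replicate number as a block. It was kept in 16 of 21 fits that each left out 1 array, with differences of 0.76 to 0.87, and it was missed by adjusted p of 0.0512 to 0.0636 without wild-type TAC samples 1, 3 or 6 or G4D TAC samples 1 or 2. With the 3' minus 5' difference of the actin control probe sets, a sign of RNA quality, as a covariate, the difference was 0.77 with adjusted p = 0.0542. That control difference averaged 0.26 ± 0.11 in G4D TAC and 0.34 ± 0.11 in wild-type TAC, and its ranges overlapped.

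After sham, Acta2 averaged 10.66 ± 0.70 in G4D (n = 5) and 9.82 ± 0.16 in wild type (n = 4). The difference of 0.84 ± 0.23 was as large as after TAC but was not called over all genes (unadjusted p = 0.00151, limma adjusted p = 0.241). None of the 8 genes was called in this comparison, Acta2 alone had an unadjusted p under 0.05, and of all 13272 genes 0.0527% were called and 8.08% had an unadjusted p under 0.05. Without G4D sham sample 5, which had the highest Acta2, the difference was 0.66 and not called (adjusted p = 0.317). Without G4D sham sample 2, which had the lowest, it was 1.13 with adjusted p = 0.000177, and without samples 2 and 5 it was 1.00 with adjusted p = 0.000299. Sample 2 was singled out for its low actin values, so leaving it out was bound to raise this difference. Its gap to the next Acta2 value took up 0.696 of the group's range, under the 0.71 needed to single out a value. Leaving out both samples was not planned.

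Averaged over both operations, Acta2 was higher in G4D than in wild type by 0.82 ± 0.15, with limma adjusted p = 0.0045. This average was added after the group values had been seen. It was called in all 21 fits that left out 1 array, over which it ranged from 0.74 to 0.97. It was not called in the values as deposited, at 0.73 with adjusted p = 0.0769. Over all tested genes the same average called 2.63%. TAC less sham was 0.08 ± 0.21 for Acta2 in G4D, with a 95% interval of -0.35 to 0.51, and 0.11 ± 0.22 in wild type, with an interval of -0.35 to 0.57. The difference between those effects was -0.03 ± 0.30. The G4D effect was 0.26 without G4D sham sample 5, -0.21 without sample 2 and -0.08 without both, and it was not called in any of these fits.

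The other Acta2 probe sets were far dimmer. They averaged 4.35 and 3.72 over all arrays, against 10.32 for the bright one. G4D less wild type after TAC was 0.16 ± 0.10 and 0.32 ± 0.23 for them, neither called, with limma adjusted p of 0.778 and 0.845 over all probe sets. In that fit, which tests every probe set and so adjusts over more tests, the bright probe set had adjusted p = 0.0791.

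Actin genes are close relatives, and a probe set can also pick up a neighbour in the family. Acta1, the skeletal actin that adult heart muscle re-expresses under load, was therefore read beside Acta2. Acta1 had a median of 12.82 in G4D TAC and 12.51 in wild-type TAC, and it rose after TAC by 0.88 ± 0.26 in G4D (adjusted p = 0.0162) and by 1.46 ± 0.27 in wild type (adjusted p = 0.00209). In wild-type TAC, Acta1 lay between 12.41 and 12.58 in all 6 samples and Acta2 between 9.66 and 10.11. Within G4D sham, sample 2 was the lowest in both. Acta1 did not pass the test between genotypes after sham in all samples (0.87 ± 0.28, adjusted p = 0.357) but did without that sample (1.24, adjusted p = 0.000365). The part of cross-hybridisation in the Acta2 signal was not tested.

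Cspg4 covers pericytes and growing smooth muscle cells. Its brightest probe set read a median of 6.83 in G4D TAC (lowest 6.54, highest 7.28) and 6.16 in wild-type TAC (lowest 6.03, highest 6.46). It read 5.44, 5.74, 5.67, 6.19 and 5.79 in G4D sham and 5.64, 5.70, 5.90 and 5.60 in wild-type sham. Every TAC sample was above every sham sample of its own genotype, and all G4D TAC samples were above all wild-type TAC samples. The sham groups overlapped.

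Cspg4 averaged 6.86 ± 0.27 in G4D TAC (n = 6) and 5.77 ± 0.27 in G4D sham (n = 5), a rise of 1.09 ± 0.13 or 2.13-fold (limma adjusted p = 5.85e-06). It was the 1 gene of the 8 called for TAC in G4D, where 22.5% of all tested genes were called, and the 1 gene whose groups did not overlap, against 10.1% of all tested genes. In wild type, Cspg4 averaged 6.20 ± 0.16 after TAC (n = 6) and 5.71 ± 0.13 after sham (n = 4), a rise of 0.49 ± 0.14 or 1.40-fold with adjusted p = 0.0367. It was again the 1 gene of 8 called and the 1 without overlap, in a comparison that called 7.35% of all tested genes and left 10.5% without overlap.

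Between genotypes after TAC, Cspg4 was higher in G4D by 0.66 ± 0.12 or 1.58-fold, with limma adjusted p = 0.00372. In the values as deposited it was 0.82 and not called (adjusted p = 0.0762). After sham the difference was 0.06 ± 0.14, with a 95% interval of -0.25 to 0.36. The TAC effect was larger in G4D than in wild type by 0.61 ± 0.19, with an unadjusted p of 0.00452 that did not pass over all genes (adjusted p = 0.316). None of the 8 genes was called for this interaction, Cspg4 alone had an unadjusted p under 0.05, and of all tested genes 0.0151% were called and 8.36% had an unadjusted p under 0.05.

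The calls for Cspg4 were not equally firm. The rise in G4D was called in all 21 fits without 1 array. Without G4D TAC sample 6 it was 1.01 (adjusted p = 1.49e-05), and G4D less wild type after TAC was 0.58 (adjusted p = 0.0103). The rise in wild type was called in 14 of those 21 fits, over a range of 0.43 to 0.55, and was lost without wild-type sham samples 1, 2 or 4 or wild-type TAC samples 1, 4, 5 or 6. It was also lost without both G4D sham samples 2 and 5 (0.49, adjusted p = 0.0504), in the values as deposited (0.43, adjusted p = 0.903), with median centring (0.49, adjusted p = 0.144) and with no level filter (adjusted p = 0.0591). A fit with replicate number as a block lost it too. The actin 3' minus 5' difference was lower after TAC in both genotypes, where it averaged 0.26 ± 0.11 in G4D TAC and 0.34 ± 0.11 in wild-type TAC, against 0.45 ± 0.10 in G4D sham (lowest 0.36, highest 0.59) and 0.49 ± 0.10 in wild-type sham (lowest 0.42, highest 0.63). With that difference as a covariate, the Cspg4 changes after TAC were 1.17 in G4D (adjusted p = 7.96e-05) and 0.55 in wild type (adjusted p = 0.0477). The second Cspg4 probe set showed the same directions at smaller sizes: TAC less sham was 0.49 ± 0.11 in G4D (limma adjusted p = 0.00763 over all probe sets) and 0.29 ± 0.12 in wild type (0.303), and G4D less wild type after TAC was 0.29 ± 0.11 (0.317).

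**Figure D3:**
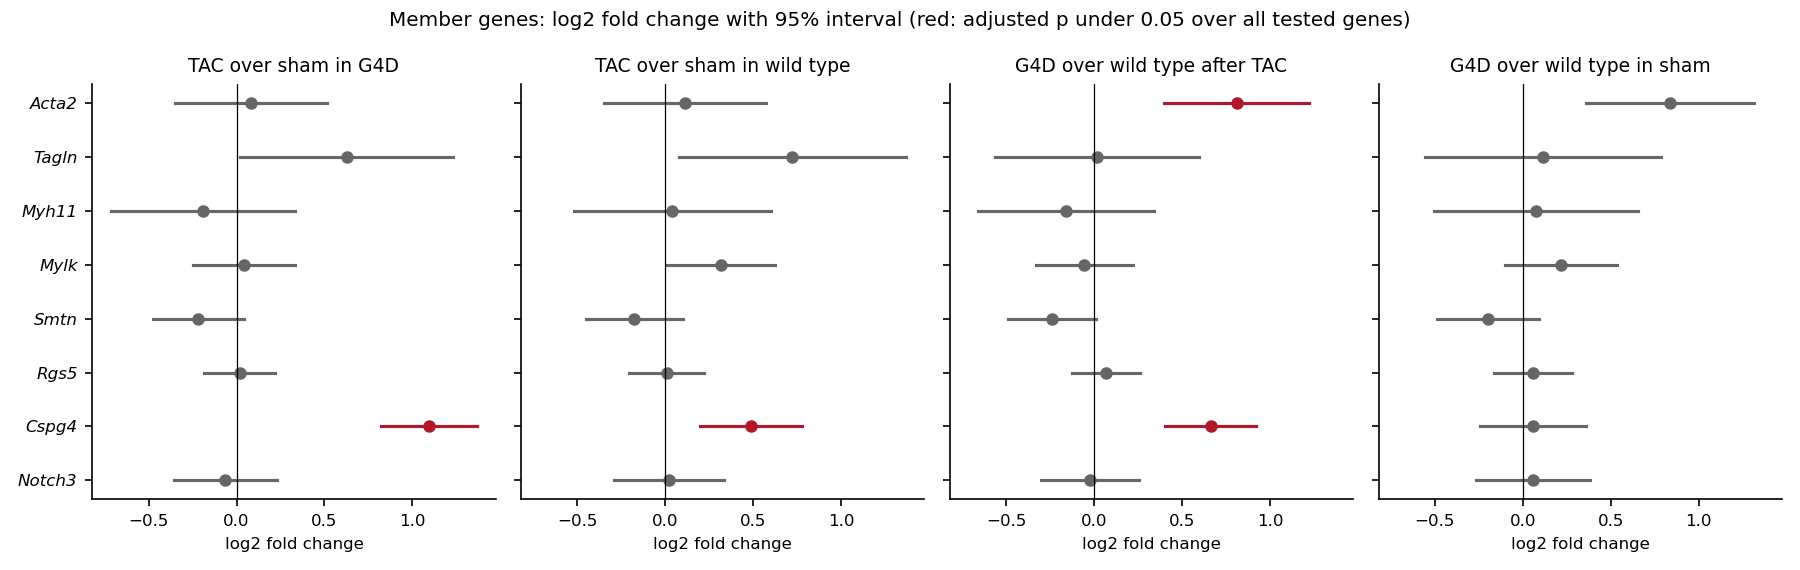
Log2 fold changes of the 8 tested genes with 95% intervals in TAC over sham in G4D, TAC over sham in wild type, G4D over wild type after TAC and G4D over wild type in sham, with called genes in red. Cspg4 stands at 1.09, 0.49 and 0.66 and Acta2 at 0.81 in red, and the Acta2 interval in sham, centred on 0.84, lies above 0 although it was not called over all genes.

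Tagln encodes transgelin, an actin-binding protein of smooth muscle and an early marker of myofibroblasts. It had a median of 7.31 in G4D TAC (lowest 6.79, highest 8.06) and 7.39 in wild-type TAC (lowest 6.94, highest 7.75). It read 5.87, 6.56, 6.39, 6.84 and 8.22 in G4D sham and 6.57, 6.98, 6.54 and 6.55 in wild-type sham. In G4D sham the value of 8.22 belonged to sample 5, the array with the atrial genes, and exceeded every TAC sample, while the other 4 lay at or under 6.84.

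TAC less sham was 0.63 ± 0.29 for Tagln in G4D (limma adjusted p = 0.132) and 0.72 ± 0.31 in wild type (adjusted p = 0.187), so Tagln was not called in either. Without G4D sham sample 5 both passed, at 0.99 with adjusted p = 0.00242 in G4D and at 0.72 with adjusted p = 0.0446 in wild type. With samples 2 and 5 both left out, Tagln passed in G4D (1.04, adjusted p = 0.00518) and not in wild type. A fit of the wild-type arrays alone gave adjusted p = 0.0174, and the values as deposited gave 0.98 with adjusted p = 0.0324 in G4D. Without G4D TAC sample 6 the G4D change was 0.50 and not called. Between genotypes Tagln differed by 0.02 ± 0.28 after TAC and by 0.11 ± 0.32 after sham, which was -0.25 without G4D sham sample 5. The 95% interval after TAC was -0.56 to 0.60, so a difference of the size seen for Acta2 in that comparison lies outside it, but one of up to 0.60 does not.

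Myh11, the smooth muscle myosin heavy chain and the most specific marker of mature smooth muscle, did not pass the test in any comparison. Its median was 6.29 in G4D TAC (lowest 5.54, highest 6.68) and 6.34 in wild-type TAC (lowest 5.95, highest 6.54), and the sham groups ran from 5.47 to 7.34 in G4D and up to 6.76 in wild type. TAC less sham was -0.19 ± 0.25 in G4D and 0.04 ± 0.27 in wild type. The highest value of 7.34 was again that of G4D sham sample 5, and without it the G4D change was 0.06 and not called. The second Myh11 probe set, at a mean of 3.66, was under the level filter.

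Mylk encodes the kinase that starts smooth muscle contraction by phosphorylating the myosin light chain. It averaged 7.18 ± 0.22 in G4D TAC, 7.24 ± 0.26 in wild-type TAC, 7.14 ± 0.25 in G4D sham and 6.92 ± 0.20 in wild-type sham. TAC less sham was 0.04 ± 0.14 in G4D, or 0.14 without G4D sham sample 5, and was not called. It was 0.32 ± 0.15 in wild type, where the unadjusted p of 0.0449 did not pass over all genes (limma adjusted p = 0.237). All 4 groups overlapped. The other Mylk probe sets gave 0.36 ± 0.16 and 0.07 ± 0.13 for TAC less sham in wild type, neither called.

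Smtn encodes smoothelin, which binds actin in contractile smooth muscle. It averaged 8.54 ± 0.25 in G4D TAC, 8.78 ± 0.23 in wild-type TAC, 8.75 ± 0.16 in G4D sham and 8.95 ± 0.15 in wild-type sham. Its fold change was below 0 in each comparison of TAC with sham and of G4D with wild type, from -0.24 ± 0.12 for G4D less wild type after TAC to -0.18 ± 0.13 for TAC less sham in wild type, and none was called. Their adjusted p in limma ran from 0.229 to 0.782.

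Cnn1 and Lmod1 were too dim for the gene-level test. Cnn1 encodes calponin, which damps the actin-activated myosin ATPase. It averaged 3.98 ± 0.69 in G4D TAC, 3.28 ± 0.31 in wild-type TAC, 2.42 ± 1.16 in G4D sham and 2.86 ± 0.20 in wild-type sham. The highest G4D sham value, 4.24, was that of sample 5, and the lowest was 1.20. In the fit of all probe sets, with no level filter, TAC less sham was 1.56 ± 0.40 in G4D (limma adjusted p = 0.0188) and 0.42 ± 0.43 in wild type (adjusted p = 0.811). Without G4D sham sample 5 the G4D change in Cnn1 was 2.01 (adjusted p = 0.000546), and the call was lost without G4D sham sample 1 (1.37, adjusted p = 0.0614) or sample 3 (1.25, adjusted p = 0.0643). Lmod1, a leiomodin that nucleates actin filaments, ran from -9.02 to 3.37 over the arrays, with a mean of -1.55, at the bottom of the array's scale, and nothing can be read from it.

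The pericyte genes other than Cspg4 were called in no comparison. Rgs5 encodes a regulator of G-protein signalling and is one of the most used pericyte markers. Its brightest probe set had a median of 11.38 in G4D TAC (lowest 11.29, highest 11.57) and 11.38 in wild-type TAC (lowest 11.07, highest 11.54). It read from 11.18 to 11.54 in G4D sham and from 11.20 to 11.55 in wild-type sham, so all 4 groups overlapped. TAC less sham was 0.02 ± 0.10 in G4D, with a 95% interval of -0.18 to 0.22, and 0.01 ± 0.10 in wild type, with an interval of -0.21 to 0.22. G4D less wild type was 0.07 ± 0.09 after TAC and 0.06 ± 0.11 after sham. The other 3 Rgs5 probe sets were not called in any comparison either.

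Notch3, the Notch receptor of smooth muscle and pericytes, had TAC effects of -0.06 ± 0.14 in G4D and 0.02 ± 0.15 in wild type. Its median was 7.56 in G4D TAC, 7.61 in wild-type TAC, 7.66 in G4D sham and 7.65 in wild-type sham. G4D less wild type was -0.02 ± 0.13 after TAC, with a 95% interval of -0.30 to 0.26. The second Notch3 probe set was not called in any comparison.

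For the 8 tested genes together the median fold change was 0.03 for TAC in G4D and 0.08 in wild type, against -0.02 over all tested genes in each. For G4D against wild type it was -0.003 after TAC and 0.07 after sham, against -0.005 and -0.008 over all tested genes.

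The genes also varied from array to array within the groups. After the group means had been subtracted, Tagln and Myh11 moved together over the 21 arrays, with Pearson r = 0.86, and still at 0.78 without G4D sham sample 5. Tagln and Mylk gave 0.70, and 0.61 without that sample. Tagln and Cspg4 gave 0.57, and 0.83 without it. Acta2 and Tagln gave 0.38 with it and -0.002 without it. G4D sham sample 2, which was low in Acta2, was kept in both values. They therefore do not show whether Acta2 followed Tagln in the remaining arrays. Rgs5 and Tagln gave -0.14 with G4D sham sample 5 and 0.24 without it. These are descriptions over arrays that share a labelling and scaling, with no test.

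For 3 of the genes, the tested genes with the most similar residual pattern over the 21 arrays were looked up. For Acta2 they were Efl1 (r = 0.87), Pla2g12b (0.79) and Tlr9 (0.79), and leaving out the 2 arrays farthest from the median of Acta2 gave 0.27, 0.52 and 0.64, so the first rests on those arrays. For Myh11 they were Dido1 (0.82), Meg3 (0.81) and Zfp579 (0.80), and 0.65, 0.61 and 0.69 without the 2 farthest arrays. For Rgs5 they were Prkch (0.86), Fgd5 (0.86) and Samd9l (0.83), and 0.81, 0.86 and 0.80 without them.

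The lists from here on were chosen with earlier results of these data known, so their counts beside those of all genes are no independent test. Other genes of the contractile apparatus were read in the same fit. Of 24 tested, 11 rose and 1 fell after TAC in G4D, and 5 rose and none fell in wild type. Over all tested genes, 13.1% rose and 9.37% fell in G4D, and 5.19% rose and 2.16% fell in wild type. The median change was 0.31 in G4D and 0.19 in wild type. The number that rose ran between 8 and 12 in G4D and between 2 and 6 in wild type when 1 array was left out. The wild-type number was 2 or 3 without wild-type TAC samples 1, 4 or 5 or any 1 wild-type sham sample, and in the values as deposited it was 0. With the actin 3' minus 5' difference as a covariate, 9 rose in G4D and 4 in wild type. Synpo2, an actin-bundling protein of muscle Z-discs, rose in G4D by 0.96 ± 0.10 (limma adjusted p = 8.24e-07) and had a change of -0.27 ± 0.10 in wild type (adjusted p = 0.14). That difference between the genotypes was itself called, at 1.23 ± 0.14 with adjusted p = 0.000355. The intermediate filament genes Des and Synm rose in G4D by 0.73 ± 0.10 and 0.76 ± 0.24, with changes of 0.00 ± 0.10 and -0.04 ± 0.25 in wild type, where neither was called. Their interactions, 0.73 (adjusted p = 0.0744) and 0.80 (adjusted p = 0.528), did not pass. Cald1, caldesmon, rose by 0.71 ± 0.16 in G4D and was not called in wild type, at 0.48 ± 0.17. Between genotypes after TAC, 3 of the 24 were higher in G4D, where 2.09% of all tested genes were higher and 1.27% lower, namely Synpo2 by 1.16, Des by 0.67 and Pdlim7 by 0.73, the last named after its value was seen. Desmin, synemin and Synpo2 are also made by heart muscle cells.

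Relatives of the 10 genes from striated muscle or from non-muscle cells were read next. Of 21 tested, 10 rose and 3 fell in G4D, where 13.1% of all tested genes rose and 9.37% fell, and 8 rose and 2 fell in wild type, where 5.19% rose and 2.16% fell. The 8 that rose in wild type became 5 without wild-type sham sample 3 and 1 in the values as deposited. The 2 that fell became 1 without wild-type TAC samples 2, 3 or 4 or wild-type sham samples 1 or 3. Myh10, the non-muscle myosin heavy chain of embryonic and activated cells, rose by 1.22 ± 0.11 in G4D (limma adjusted p = 4e-07) and by 0.65 ± 0.12 in wild type (adjusted p = 0.00178), and it was higher in G4D than in wild type after TAC by 0.68 ± 0.11 (adjusted p = 0.00087). Rgs2, which brakes signalling through Gq-coupled receptors, fell by 1.36 on the log2 scale in G4D and by 0.73 in wild type, and Mylk4, a kinase of the same family as Mylk, fell by 0.99 in G4D. Between genotypes after TAC, 2 of the 21, Myh10 among them, were higher in G4D and none lower. Over all tested genes, 2.09% were higher and 1.27% lower in that comparison. Whether the relatives differ as a group from the 10 genes was not tested.

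**Figure D4:**
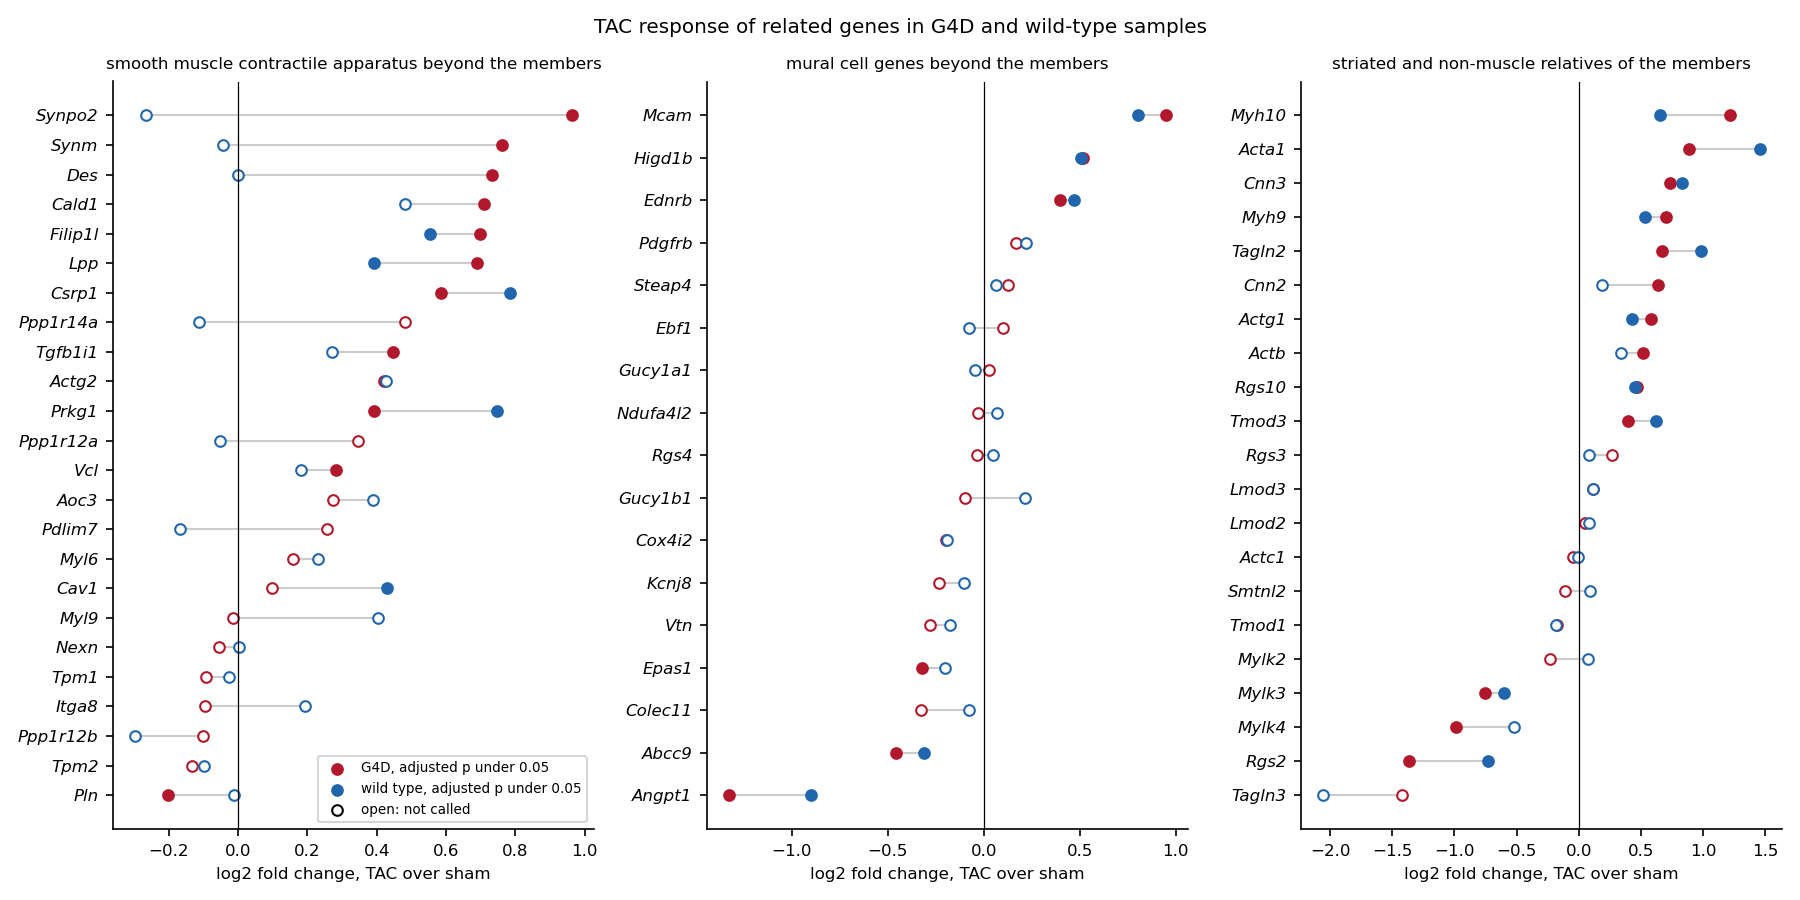
Log2 fold changes of TAC over sham for the tested genes of 3 lists (24 contractile genes, 17 mural genes and 21 relatives), in red for G4D and in blue for wild type, filled where limma's adjusted p was under 0.05. Synpo2, Synm and Des stand at the top of the first panel with G4D values of 0.96, 0.76 and 0.73 and open wild-type symbols near or below 0.

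Of 17 further mural cell genes tested, 3 rose and 3 fell after TAC in G4D, and 3 rose and 2 fell in wild type, against 22.5% of all tested genes called in G4D and 7.35% in wild type. In wild type, 1 rose without wild-type TAC samples 4 or 5 or wild-type sham sample 1, and 1 fell without wild-type sham samples 1, 2 or 4. Mcam, the adhesion molecule CD146 of pericytes and endothelium, rose by 0.95 ± 0.16 in G4D and by 0.81 ± 0.17 in wild type, and Higd1b, a mitochondrial gene enriched in pericytes, rose by 0.52 ± 0.13 and by 0.50 ± 0.14. Angpt1, the pericyte ligand of the endothelial Tie2 receptor, fell by 1.33 on the log2 scale in G4D and by 0.90 in wild type. Abcc9, a subunit of the pericyte and muscle KATP channel, fell by 0.46 in G4D and by 0.31 in wild type. Between genotypes after TAC, where 3.36% of all tested genes were called, 1 of the 17 was called, Colec11, lower in G4D by 1.19 on the log2 scale and named after its value was seen. In the values as deposited none of these mural genes was called to rise in wild type.

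Among 19 tested regulators of smooth muscle genes, 4 rose and 4 fell after TAC in G4D, and 2 fell in wild type. Over all tested genes 13.1% rose and 9.37% fell in G4D and 2.16% fell in wild type. Between genotypes after TAC, 1 of the 19 was higher in G4D and none lower, where 2.09% of all tested genes were higher. The number that fell in wild type ran between 0 and 3 when 1 array was left out, and was 0 without wild-type TAC samples 2 or 4 or wild-type sham samples 1, 2 or 3. In G4D, 2 rose without G4D sham sample 1, and 1 fell without G4D sham samples 2 and 5. Foxs1, a forkhead factor of perivascular cells, rose by 0.95 ± 0.16 in G4D (limma adjusted p = 0.000166), and the T-box factor Tbx18 by 0.86 ± 0.25. The class II deacetylase Hdac4 fell by 0.62, and Foxo4, which represses myocardin's activity, by 0.47 in G4D and 0.40 in wild type. With the values as deposited none of the 19 fell in either genotype. Of 16 Notch ligands, receptors and targets, Notch2 alone was called, 0.59 ± 0.19 in G4D, and the number called there ran between 0 and 4 when 1 array was left out. Of 6 tested genes listed with the PDGF ligands and receptors, the receptor-like gene Pdgfrl alone was called. Its changes were 1.48 ± 0.25 in G4D and 1.02 ± 0.27 in wild type, and 0.95 ± 0.24 between genotypes after TAC. The other genes of that list were called in no comparison.

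Markers of other cell types were read in the same comparisons, in which 13.1% of all tested genes rose after TAC in G4D, 5.19% rose in wild type and 2.09% were higher in G4D than in wild type after TAC. Of 10 markers of activated fibroblasts tested, 9 rose after TAC in G4D and 7 in wild type, and 4 were higher in G4D than in wild type after TAC. Tnc, tenascin C, rose by 4.06 in G4D and 2.48 in wild type, Cilp by 4.01 and 1.74, Postn, periostin, by 3.42 and 2.62, and Cthrc1 by 3.33 and 2.26. Among these named genes, Cilp alone was called between genotypes after TAC, at 2.50 with limma adjusted p = 8.13e-05. Tnc, Postn and Cthrc1 were not, with adjusted p of 0.156, 0.0703 and 0.5. None of the 10 was called for the interaction. The mean of the 10 genes was 8.05 ± 0.56 in G4D TAC (7.02 to 8.64), 7.10 ± 0.42 in wild-type TAC (6.60 to 7.77), 5.73 ± 0.25 in G4D sham (5.35 to 6.02) and 5.66 ± 0.04 in wild-type sham (5.60 to 5.68). Between genotypes in sham none of these 10 genes was called, and their median difference was 0.05. Of 10 general fibroblast genes, 5 rose and 1 fell in G4D, and 4 rose and 1 fell in wild type. Col1a1, a chain of fibrillar collagen, rose by 2.07 in G4D and by 1.58 in wild type. Of 8 macrophage genes, 7 rose in G4D and 6 in wild type, though 0 rose in wild type in the values as deposited. Their mean was 8.12 ± 0.18 in G4D TAC (7.92 to 8.42), 8.24 ± 0.29 in wild-type TAC (7.80 to 8.70), 7.46 ± 0.20 in G4D sham (7.25 to 7.74) and 7.50 ± 0.06 in wild-type sham (7.44 to 7.57). All 4 proliferation genes tested rose in both genotypes, Mki67 by 2.37 in G4D and by 2.86 in wild type. Their mean was 6.52 ± 0.76 in G4D TAC (5.38 to 7.45), 6.69 ± 0.59 in wild-type TAC (5.93 to 7.31), 3.98 ± 0.40 in G4D sham (3.59 to 4.44) and 3.84 ± 0.25 in wild-type sham (3.66 to 4.20). No gene of the fibroblast, macrophage or proliferation lists was called between genotypes after TAC. Of 10 endothelial genes, none was called after TAC in G4D and 1 rose in wild type, Pecam1, by 0.53. Of 8 cardiomyocyte genes, 2 fell after TAC in G4D, Pln by 0.20 and Tnni3 by 0.21, and none in wild type, against 9.37% of all tested genes that fell in G4D and 2.16% in wild type. In the fits that left out 1 array the 2 ran between 0 and 2. The part of changed cell numbers in the results for Acta2 and Cspg4 was not tested.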

How the data were processed

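The authors deposited log2 values for 45101 probe sets on 21 arrays, and PLIER is the tool named in the submitters' processing notes. The log2 scale was inferred from the range of the deposited values, -13.5 to 15.1, and further scaling by the authors is not given in the sources used here. Probe sets were named from the platform annotation: 34945 had 1 symbol, 932 several and 9160 none, and 64 controls were left out. Arrays were quantile normalized, and the brightest probe set of each gene was kept if its mean reached the 40th percentile. Groups come from the titles. All 21 arrays entered 1 fit of group means in limma 3.58.1 (R 4.3.3; lmFit, contrasts.fit, eBayes; two-sided; 17 residual degrees of freedom), with Benjamini-Hochberg adjustment over 13272 genes. A second fit held all probe sets. The genes named beyond the 10 were drawn, in each list, from up to 4 called genes with the largest change after TAC in G4D, with exceptions stated. Where none was called in G4D, those called in wild type were taken. Not all of these genes are printed, and the called genes of the macrophage, lymphocyte and atrial lists are among those left out. Members and lists were chosen with earlier results of these data known. The labels do not say whether replicate numbers pair samples. Over 19 same-numbered pairs, correlations of deviations ran from -0.36 to 0.35 and 6 were over 0.1. Pairs with different numbers were not compared, so these values do not settle it. On simulated data with 200 changed genes among 13272, the fit recovered 95% of changes of log2 size 1 and 66% of size 0.5 for G4D against wild type after TAC, and 91% and 45% for TAC in wild type. Of the calls in these simulated data, 6.4% and 4.23% were false. The noise was normal, independent between genes and arrays, with the spread of the fit. It held no arrays that stand apart, so recovery in the real data may be lower. The alternatives were other scaling, filters, probe set choices, variance models, array weights, a replicate block, an RNA quality covariate and leaving out each array.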

Additional observations from a re-analysis of the deposited data

Results flagged for a closer look

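In groups of 4 to 6 arrays, a value was singled out when its gap to the nearest other value took up an unusually large share of the group's range. This was examined for 40 sets of values, 10 genes in 4 groups, and 3 met it, where chance alone singles out about 1 in 20. Tagln in wild-type sham sample 2 read 6.98, against 6.57 in the next sample. Cnn1 in wild-type TAC sample 5 read 2.68, against 3.29 in the next sample. Notch3 in wild-type TAC sample 2 read 8.01, against 7.68 in the next sample.

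Synpo2 stood out because its response to TAC differed between the genotypes in a test of the difference itself: TAC less sham in G4D minus TAC less sham in wild type was 1.23 (limma adjusted p = 0.000355). It was called in all 21 fits without 1 array, at 1.16 to 1.29, and in 10 of 11 other settings.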

How the results depend on the processing

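Over 34 alternative settings, 1518 of 1568 values of the 8 tested genes kept their side of the threshold, 43 lost a call, 7 gained one and none reversed as a called value. These values cover 48 pairs of gene and comparison, the average over both operations included. Most of these pairs were not called in the main fit, so keeping a side mostly means staying uncalled. The 43 losses all fall on the few called results. Among uncalled values, 130 changed sign. The number of these genes called for TAC in wild type was 1, and 0 in the values as deposited, with median centring, with no filter, with the replicate block and without G4D sham samples 2 and 5, and 2 with only the groups compared. Leaving out 1 array gave 0 to 2. For TAC in G4D it was 1, and 2 in the values as deposited and without samples 2 and 5, with Tagln as the second. With no filter, Cnn1 and Lmod1 are also tested, and it was 2 of the 10, with Cnn1 as the second (adjusted p = 0.0119). Among the 8 it was 1 there. Leaving out 1 array gave 1 to 2. Between genotypes after sham it was 0, 1 without samples 2 and 5, and 0 to 1 without 1 array. Between genotypes after TAC it was 2, and 1 in the values as deposited, with the replicate block and with the actin covariate, and 1 to 2 without 1 array. For the interaction it was 0 in every setting run. With the replicate block Acta2 after TAC had adjusted p = 0.0598 and Cspg4 in wild type was 0.44 with adjusted p = 0.116, and the other calls of these genes in the 5 comparisons were kept. Averaged over both operations, Cspg4 was higher in G4D by 0.36 (adjusted p = 0.0478), a call kept in 6 of 21 fits without 1 array. In the values as deposited, Cspg4 after TAC was 0.82 with adjusted p = 0.0762. Over all genes, the calls for TAC in wild type numbered 976, against 95 as deposited, 390 with median centring and 489 with the replicate block. Those for TAC in G4D numbered 2987, 2252, 2184 and 2376, those between genotypes after sham 7, 3, 4 and 3, and those after TAC 446, 64, 184 and 277. In the values as deposited the median of all genes shifted by 0.31 for TAC in G4D, -0.28 between genotypes after sham and 0.14 after TAC, so changes on that scale include these shifts. With median centring it shifted by 0.10 for TAC in G4D and -0.12 after sham. Of 7499 values of 46 further named genes, 7263 kept their side and 1 reversed: Pdlim7 for TAC in wild type was called at 0.48 with the mean of its probe sets. The causes of these changes were not tested. Signal limits Cnn1, whose probe set averaged 3.19, under the level filter, and Lmod1, whose probe set lies near the bottom of the scale.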
